A study of Mus musculus with 2 samples.

Results

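Klf2, Klf4, Nos3, Thbd and Piezo1 are 5 genes by which endothelial cells, the lining of blood and lymphatic vessels, sense and answer the drag of moving fluid on their surface (shear stress). They were taken by name from the 31053 gene rows of each library, and all 5 were present in both. Piezo1 codes for a cation channel that opens when the membrane is stretched or sheared. Klf2 and Klf4 code for zinc finger transcription factors that rise in endothelium under steady flow through a kinase cascade ending at the MEF2 factors, and both are known to activate Nos3 and Thbd. Nos3 codes for endothelial nitric oxide synthase, which relaxes vessels, and Thbd for thrombomodulin, the surface receptor that turns thrombin toward the activation of protein C and so limits clotting. Klf2 and Klf4 also belong to the genes that tissue digestion and cell sorting can switch on, and their levels were therefore read beside Fos and Egr1, immediate early genes that mark such handling.

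Ileum of C57Bl/6 mice, wild type, male and 8 weeks old, gave the cells, which were collected as 2 droplet libraries with the same labels (1 group, n = 2). The sort kept CD31-positive cells without EpCAM or CD45, both those lacking PDPN (blood endothelium) and those carrying it (lymphatic endothelium). Whether each library is a different mouse is not given in the labels. The p-values set class differences against their variation over these 2 libraries, which may be technical, with a spread estimated mainly from other genes. Comparisons are between classes of cells within the libraries, set by raw counts of unique molecular identifiers (UMIs). Lymphatic cells had at least 5 UMIs of Mmrn1, Lyve1 and Prox1 together, and blood cells at least 5 of Flt1, Cd34, Plvap and Esam. Of the blood cells, venous cells had at least 4 UMIs of Ackr1, Selp and Madcam1, and arterial cells at least 3 of Sema3g, Fbln5 and Stmn2. The remaining blood cells were capillary and were divided by whether Plvap exceeded Gpihbp1 plus Aqp1 (Plvap capillary) or did not (Gpihbp1/Aqp1 capillary). In the order library 1 and library 2, the classes held 78 and 976 lymphatic, 70 and 267 venous, 147 and 883 arterial, 361 and 2362 Plvap capillary, and 231 and 1084 Gpihbp1/Aqp1 capillary cells.

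The libraries differed in size, with 978 and 6067 cells kept, and they shared 2 cell barcodes. Median depth was 2894 and 2145 UMIs in lymphatic cells and 3435 and 4039.5 in blood cells, with 3.47 and 5.32% against 2.295 and 2.59% mitochondrial UMIs. The 6 blood endothelial genes summed to 70.9 and 250.6 CPM (UMIs of a gene per 1000000 UMIs of the class) in lymphatic cells. In the blood classes they summed to 6213.5 to 12483.6 CPM. The 6 lymphatic genes summed to 12894.8 and 15810.8 CPM in lymphatic cells and 30.6 to 137.9 CPM in the blood classes. Both lists hold the genes that set these classes, so the sums were partly fixed in advance. Of the genes outside the gates, Ly6c1 was at 0 and 53.6 CPM in lymphatic cells and 958 to 2915 CPM in the blood classes. Sox17 was at 0 and 15.6 against 113 to 616 CPM, and Reln at 2366 and 2023 against 0 to 3.56 CPM. Flt4 was at 2059 and 1585 against 9.18 to 131 CPM, and Pdpn at 276 and 365 against 0 to 5.08 CPM. Markers of other cells differed between libraries: in library 2 the red cell genes summed to 2226.2 CPM (2.7 in library 1) and the fibroblast genes to 346.0 CPM (13.5) in Gpihbp1/Aqp1 capillary cells, and the epithelial genes to 517.8 CPM (0) in Plvap capillary cells. Klf2, Klf4 and Thbd in Gpihbp1/Aqp1 capillary cells also differed between the libraries, and the part of these cells in that was not tested. Fos and Egr1 were themselves lower in lymphatic cells: with every cell thinned to 1500 UMIs, 72.3 and 61.3% of lymphatic cells and 26.4 and 18.9% of blood cells had no UMI of either gene.

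In the lymphatic cells, 4 of the 5 genes were lower than in blood cells as a whole (edgeR, false discovery rate 0.05), against 24.7% of all 10965 genes tested. They were Nos3, Klf2, Klf4 and Thbd, in the order of their fold change, and the fifth, Piezo1, did not pass. Against single classes, all 5 were lower in lymphatic than in venous cells (40.3% of all genes called in either direction) and than in Gpihbp1/Aqp1 capillary cells (46.4%). Against arterial cells (46%) and Plvap capillary cells (51.2%), the same 4 were lower and Piezo1 did not pass. Against venous cells, Klf4 missed with no scaling beyond library totals (-0.64, adjusted p = 0.11 in edgeR) and Thbd without a term for the library (-0.72, adjusted p = 0.13). These shares of all genes are high, so a count of lower members says little by itself, and the sizes below carry the result.

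**Figure D1:**
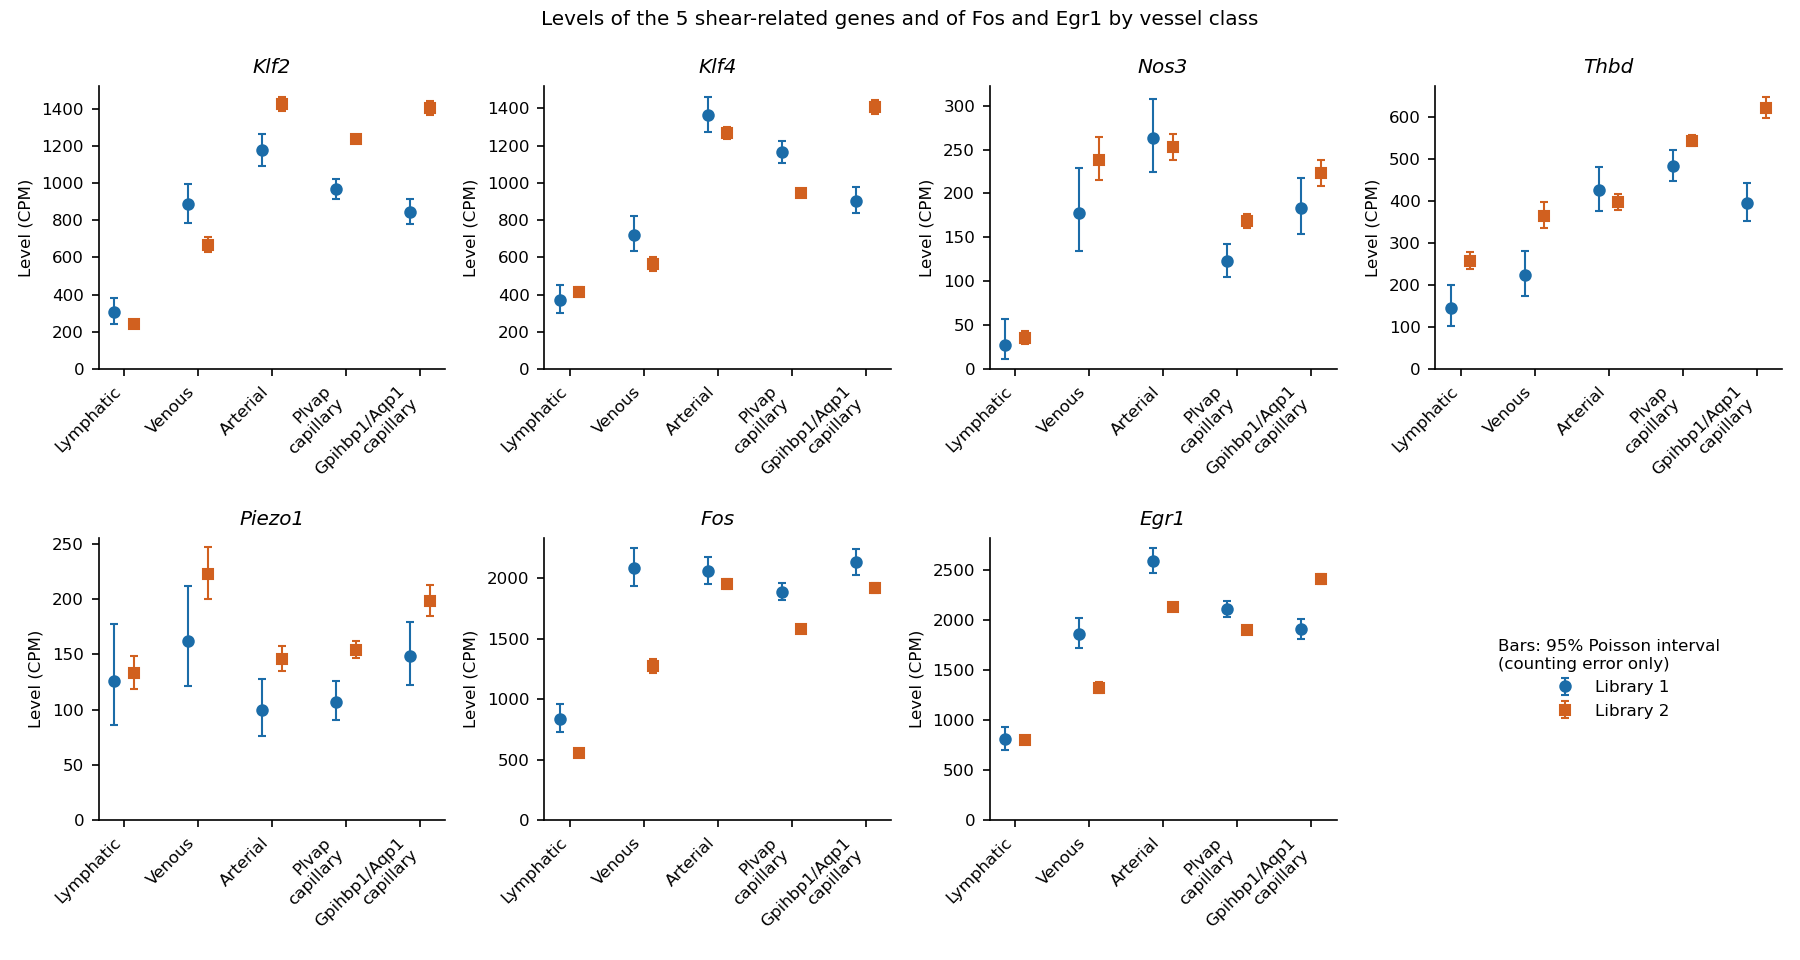
Level in CPM (vertical axis, from 0, a separate scale for each gene) of the 5 shear-related genes and of Fos and Egr1 in the 5 classes, library 1 as circles and library 2 as squares, with bars for the 95% Poisson interval (counting error only). Nos3 in lymphatic cells lies at 27.6 and 35.6 CPM, below every blood class. Piezo1 in lymphatic cells lies within the range of the blood classes in library 1 (126 CPM) and below all of them in library 2 (133 CPM).

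Piezo1 (ENSMUSG00000014444; GRCm38 chromosome 8, 122481698 to 122551329, minus strand, 51 exons), the mechanosensor, differed least of the 5 between lymphatic and blood cells. It stood at 126 CPM in library 1 and 133 in library 2 in lymphatic cells, 162 and 223 in venous, 99.8 and 146 in arterial, 107 and 155 in Plvap capillary, and 149 and 199 in Gpihbp1/Aqp1 capillary cells. Venous cells were highest and arterial cells lowest of the blood classes in both libraries. The venous level exceeded the arterial (log2 fold change of arterial over venous -0.78 ± 0.14 SE, adjusted p = 2.2e-05 in edgeR; -0.82 and -0.77 in the libraries), the Plvap capillary (0.66 ± 0.14, adjusted p = 1.3e-04) and the lymphatic level (lymphatic over venous -0.90 ± 0.16, adjusted p = 3.4e-06). Without a term for the library, the venous excess over arterial and Plvap capillary cells had adjusted p of 0.052 and 0.085. Lymphatic and pooled blood cells did not differ beyond the error (log2 -0.30, 95% interval -0.65 to 0.04, adjusted p = 0.15). With cells thinned to 1500 UMIs, which also left out 13 and 260 shallower lymphatic cells, the difference was -0.65 (adjusted p = 0.0081). In library 1 alone, with all cells, it was -0.0081. The lower lymphatic level against Gpihbp1/Aqp1 capillary cells (-0.50 ± 0.15) did not pass without a term for the library (adjusted p = 0.25) or in cells without Fos and Egr1 UMIs (-0.30, adjusted p = 0.37). Piezo1 overlaps Ctu2 on the opposite strand, which had 450 UMIs against 4128 for Piezo1, and whether the counting used strand is not stated.

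Klf2 (ENSMUSG00000055148; chromosome 8, 72319033 to 72321656, plus strand, 3 exons) was the member whose level separated lymphatic from blood vessels most after Nos3. Lymphatic cells had 307 and 243 CPM, venous 885 and 666, Plvap capillary 967 and 1236, Gpihbp1/Aqp1 capillary 846 and 1404, and arterial cells 1177 and 1424. Both lymphatic values lay below every blood value. The level was 4.57-fold lower than in pooled blood (log2 -2.19 ± 0.15, adjusted p = 1.6e-48 in edgeR; -1.72 and -2.48 in the libraries), and 24.6 and 25.4% of lymphatic cells had a Klf2 UMI at 1500 UMIs per cell, against 65.0 and 75.1% of arterial cells. Of 37 stromal cells of library 2, taken as a measure of free RNA, 16.2% had one (95% interval 6.19 to 32.0%). The interval holds the lymphatic share, so these shares do not separate the 2 kinds of cells at this depth. Klf2 UMIs were uneven over lymphatic cells, with at most 8 and 10 in a cell and a variance over the mean of 3.04 and 1.85. What part of the lymphatic level is free RNA, and whether the stromal cells transcribe Klf2 themselves, was not tested.

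Among blood vessels the mean Klf2 level of the 2 libraries ran from arterial at the top to venous at the bottom, although in library 1 the Gpihbp1/Aqp1 capillary cells were lowest, and no neighbours in that order differed beyond their spread (adjusted p from 0.32 to 0.85). Arterial exceeded venous cells by 0.65 ± 0.26 on the log2 scale with an adjusted p of 0.15. The libraries gave 0.29 and 0.93. The call depended on the processing: it passed in 3 of 10 alternatives (adjusted p from 1.4e-06 to 0.25), among them cells thinned to 1500 UMIs (0.72, adjusted p = 1.8e-05) and no filter on low counts (0.69, adjusted p = 1.4e-06).

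Klf4 (ENSMUSG00000003032; chromosome 4, 55527143 to 55532466, minus strand, 5 exons) was likewise lowest in lymphatic and next lowest in venous cells. It had 370 and 412 CPM in lymphatic cells, 722 and 562 in venous, 1166 and 943 in Plvap capillary, 904 and 1406 in Gpihbp1/Aqp1 capillary and 1367 and 1266 in arterial cells. Lymphatic cells were lowest in both libraries, and venous cells were next, while Gpihbp1/Aqp1 capillary exceeded arterial cells in library 2. A Klf4 UMI was found in 36.0% of lymphatic cells of library 2 at 1500 UMIs per cell, inside the interval of the stromal cells (24.3%, 11.8 to 41.2%). The difference between lymphatic and pooled blood cells was 2.90-fold (log2 -1.54 ± 0.14, adjusted p = 4.4e-27 in edgeR; -1.63 and -1.48 in the libraries). Arterial exceeded venous cells (0.93 ± 0.22, adjusted p = 0.017; 0.80 and 1.01 in the libraries), a call kept in all 10 tested alternatives. Egr1 was also higher in arterial than in venous cells (0.44 ± 0.13, adjusted p = 0.012). In cells with at most 1 Fos or Egr1 UMI the Klf4 difference was 0.65 (adjusted p = 0.0095 in edgeR).

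The promoters of both factors are shown because they are the members that moved together. RefSeq windows on GRCm38.p6 were found for 3 of the 5 members, Klf2, Klf4 and Piezo1, and the 250 bases before the RefSeq start of the factors read 5′ to 3′ as follows, with motif matches in capitals.
Klf2 (chr8:72318812-72319061, plus strand): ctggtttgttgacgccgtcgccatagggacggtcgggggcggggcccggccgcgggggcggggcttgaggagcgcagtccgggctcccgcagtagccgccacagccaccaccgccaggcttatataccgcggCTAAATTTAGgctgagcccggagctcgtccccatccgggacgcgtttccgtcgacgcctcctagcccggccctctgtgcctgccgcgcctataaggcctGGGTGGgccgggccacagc
Klf4 (chr4:55532476-55532725, minus strand): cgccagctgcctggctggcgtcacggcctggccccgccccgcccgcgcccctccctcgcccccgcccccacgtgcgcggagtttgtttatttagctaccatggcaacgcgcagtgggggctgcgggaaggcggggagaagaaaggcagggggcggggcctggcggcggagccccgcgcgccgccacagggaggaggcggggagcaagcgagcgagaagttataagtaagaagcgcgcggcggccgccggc
The capitals in Klf2 mark a match to the MEF2 consensus, which starts 118 bases before the RefSeq start, and GGGTGG, 19 bases before it, which is the reverse complement of CCACCC, a core bound by KLF factors. The GENCODE start of Klf2, at 72319033, lies inside this window. By that annotation GGGTGG is within the gene and the MEF2 match is before it. On either strand, a MEF2 consensus match was in 2.92% and CCACCC in 28.1% of all 32851 RefSeq windows of this length. Neither was found in the windows of Klf4 or Piezo1, and the CArG box (1.47% of windows), TGANTCA (6.75%) and TGACGTCA (1.55%), motifs of the serum response, AP-1 and cyclic AMP response factors, were found in none of the 3. The windows were GC-rich, at 71.2% for Klf2 and 74.0% for Klf4 and Piezo1. A match is a run of letters, not a bound site.

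Nos3 (ENSMUSG00000028978; chromosome 5, 24364810 to 24384474, plus strand, 26 exons) was the most strongly divided between blood and lymphatic vessels. Lymphatic cells had 27.6 CPM from 7 UMIs in library 1 and 35.6 CPM from 89 UMIs in library 2. The blood classes ranged from 123 and 169 CPM in Plvap capillary cells, through 184 and 223 in Gpihbp1/Aqp1 capillary and 178 and 239 in venous cells, to 264 and 253 in arterial cells. No lymphatic value came near a blood value. The level was 6.16-fold lower than in pooled blood (log2 -2.62 ± 0.21, adjusted p = 1.9e-33 in edgeR; -2.70 and -2.61 in the libraries). At 1500 UMIs per cell, 3.08 and 5.31% of lymphatic cells had a Nos3 UMI (7.69 and 7.89% unthinned), against 33.6 and 31.2% of arterial cells and none of 37 stromal cells in library 2 (exact upper bound 9.49%). The lymphatic share of library 2 (95% interval 3.78 to 7.21%) thus lay inside the range the stromal cells allow at this depth. With all UMIs counted, the lymphatic level of library 2 was 35.6 CPM (95% Poisson interval 28.6 to 43.8). The stromal level there was 4.16 CPM from 1 UMI (0.11 to 23.2), so these intervals did not overlap. What part of the lymphatic level is free RNA was not tested.

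Within the blood vessels Nos3 was lowest in Plvap capillary cells. Arterial cells exceeded them by 0.72 ± 0.12 on the log2 scale (adjusted p = 1.4e-05 in edgeR) and venous cells by 0.63 ± 0.14 (adjusted p = 3.0e-04). The smaller excess of Gpihbp1/Aqp1 over Plvap capillary cells (0.33 ± 0.125, adjusted p = 0.047) and of arterial over Gpihbp1/Aqp1 capillary cells (0.39 ± 0.13, adjusted p = 0.028) passed in only 4 and 6 of 11 alternatives. In cells with at most 1 Fos or Egr1 UMI the arterial and venous excess over Plvap capillary cells was 0.49 and 0.51 and no longer passed (adjusted p = 0.10 and 0.074), and without a term for the library the venous one had an adjusted p of 0.052. Nos3 overlaps the antisense gene Gm15587 (52 UMIs) and Atg9b (140 UMIs) on the opposite strand, against 4762 UMIs of its own.

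Thbd (ENSMUSG00000074743; chromosome 2, 148404466 to 148408188, minus strand, 1 exon) was highest on average in Plvap capillary cells. The difference of arterial cells from them did not pass (adjusted p = 0.11 in edgeR), nor did that from Gpihbp1/Aqp1 capillary cells (0.34). Over the alternatives, arterial over Plvap capillary ran from -0.52 to -0.19 and passed in 4 of 11. Arterial over Gpihbp1/Aqp1 capillary ran from -0.55 to 0.20 and passed in 1 of 11. Thbd stood at 485 and 545 CPM in Plvap capillary, 396 and 622 in Gpihbp1/Aqp1 capillary, 427 and 398 in arterial, 223 and 366 in venous and 146 and 257 in lymphatic cells. In each library lymphatic cells were lowest and venous cells next, although the lymphatic value of library 2 exceeded the venous value of library 1. The level in lymphatic cells was 2.38-fold lower than in pooled blood (log2 -1.25 ± 0.16, adjusted p = 1.1e-14 in edgeR; -1.60 and -1.09 in the libraries). Venous cells were lower than Plvap capillary cells (-0.64 ± 0.16, adjusted p = 0.0060) and than Gpihbp1/Aqp1 capillary cells (-0.51 ± 0.17, adjusted p = 0.026). Without a term for the library these had adjusted p of 0.25 and 0.32, and in cells with at most 1 Fos or Egr1 UMI they were -0.50 and -0.11 (adjusted p = 0.064 and 0.77). At 1500 UMIs per cell, 28.5% of lymphatic cells of library 2 had a Thbd UMI and 27.0% of the stromal cells (95% interval 13.8 to 44.1%). With all UMIs counted, the stromal level there was 350 CPM (95% Poisson interval 279 to 433), above the lymphatic 257 (238 to 278). Whether stromal cells transcribe Thbd themselves was not tested, so their share is no floor of free RNA. Venous cells thus had less Thbd and more Nos3 than Plvap capillary cells.

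The 6 pairs of blood classes called 1 to 3 of the 5 members each, counts too small to set against the shares of all genes beside them. Of the 5 members, arterial against venous cells called 2 (Klf4 and Piezo1) where 21.6% of all 10573 genes were called, arterial against Plvap capillary 1 (Nos3, 13.1%), and arterial against Gpihbp1/Aqp1 capillary 2 (Nos3 and Piezo1, 16.5%). Venous cells called 3 against Plvap capillary (Nos3, Piezo1 and Thbd, 22.2%) and 2 against Gpihbp1/Aqp1 capillary cells (Piezo1 and Thbd, 27.8%), and the capillary classes differed in 1 (Nos3, 25.1%). Over the 4 blood classes together, 3 members varied (Nos3, Piezo1 and Thbd) against 37.8% of all genes, while Klf4 (adjusted p = 0.0504) and Klf2 (0.33) did not pass in edgeR.

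In cells without Fos and Egr1, the difference between lymphatic and blood vessels was smaller for the factors, most of all for Klf4, and as large for Nos3. Among cells with no Fos or Egr1 UMI in 1500, Klf2 was at 240 and 216 CPM in 47 and 439 lymphatic cells and at 517 and 681 CPM in 195 and 842 blood cells, a log2 difference of -1.53 (adjusted p = 1.3e-14 in edgeR), against -2.19 in all cells. Klf4 was at 274 and 303 CPM against 370 and 535, a difference of -0.75 (adjusted p = 3.1e-04), against -1.54 in all cells. Both factors thus remained lower in lymphatic cells, but by less. Nos3, at 28.6 and 37.3 against 186 and 216 CPM, differed by -2.63, as much as in all cells. Thbd, at 177 and 291 against 450 and 478 CPM, differed by -0.97, and Piezo1 by -0.27 (adjusted p = 0.35). Fos itself was at 0 and 31.3 CPM in these lymphatic cells and 74.98 and 113 CPM in these blood cells when all UMIs of the cells were counted, and Egr1 at 22.8 and 44.7 against 73.7 and 131 CPM, so the cells were not fully matched.

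At the other end, lymphatic cells with 3 or more Fos and Egr1 UMIs had Klf4 at 1014 and 891 CPM, against 1025 and 773 CPM in such venous cells and 1516 and 1350 CPM in such blood cells as a whole, and Klf2 at 845 and 394 CPM, against 1267 and 1582 CPM in blood cells. Nos3 stayed at 28.2 and 27.6 CPM in them, against 170 and 192 CPM in the blood cells. Thbd was at 56.3 and 226 CPM in them, below the 177 and 291 CPM of lymphatic cells without Fos and Egr1. Klf2 and Klf4 were thus higher in lymphatic cells rich in Fos and Egr1 than in those without, and Nos3 and Thbd were not. The log2 difference from blood cells was -0.58 and -2.01 for Klf2 and -2.89 (from 2 UMIs) and -1.25 for Thbd, so the libraries were far apart. With 10 lymphatic cells in library 1 these are values without a test.

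**Figure D2:**
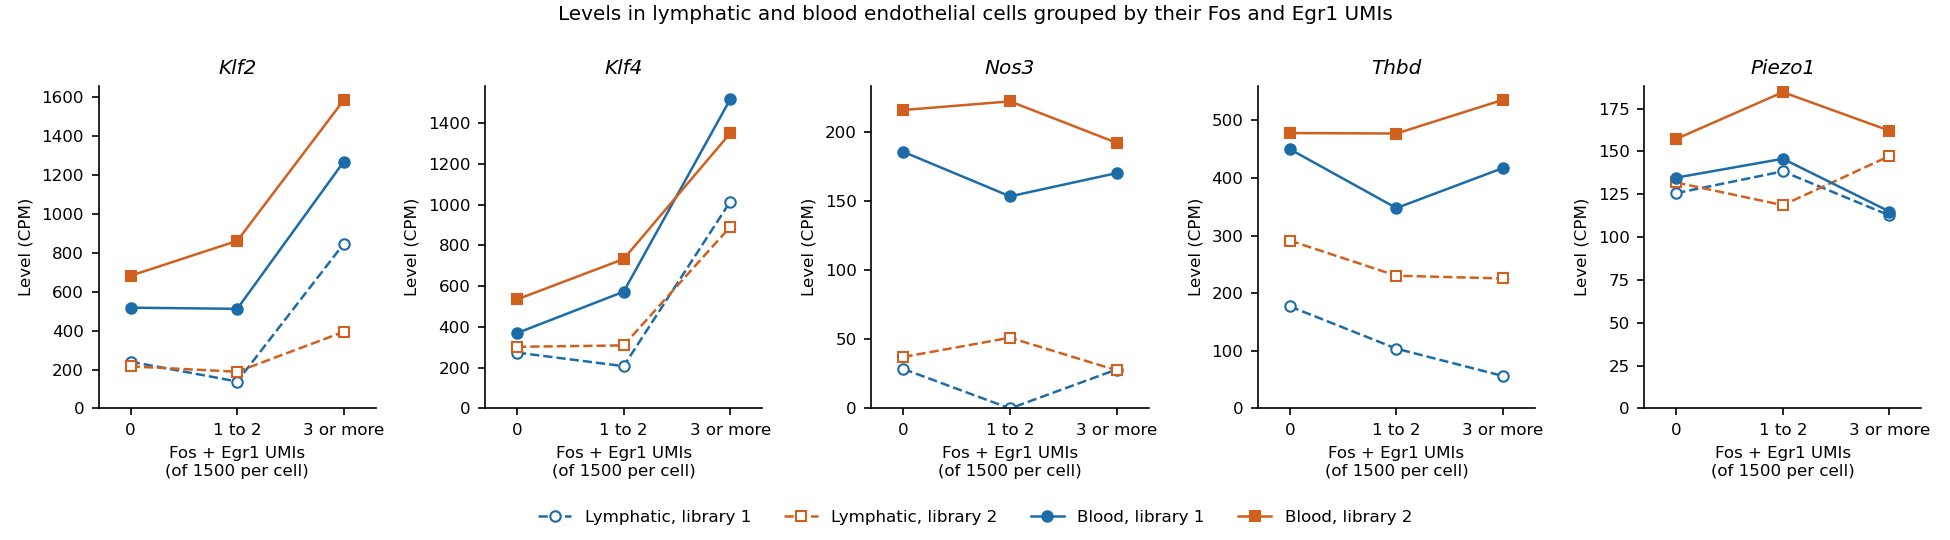
Level in CPM (vertical axis, from 0) of each of the 5 genes in lymphatic cells (dashed, open) and blood cells (solid, filled) with 0, 1 to 2, or 3 or more Fos and Egr1 UMIs of 1500 (horizontal axis), library 1 as circles and library 2 as squares. Klf2 and Klf4 are highest at 3 or more such UMIs in both kinds of vessel, whereas Nos3 in blood cells is 186 and 216 CPM at 0 and 170 and 192 CPM at 3 or more.

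Within each class of blood vessel, cells were next divided at the class median of Fos plus Egr1 in each library, at 1500 UMIs per cell. Klf2 and Klf4 were higher in the high cells of all 4 classes, and they were the 2 members called in each. The share of all 9273 genes called higher was 0.431% in venous, 1.19% in arterial, 1.94% in Plvap capillary and 1.84% in Gpihbp1/Aqp1 capillary cells. In Plvap capillary cells, Klf2 went from 563 CPM in low to 1425 in high cells of library 1 and from 832 to 1743 in library 2 (log2 1.25 ± 0.13, adjusted p = 6.3e-12 in edgeR). Klf4 went from 628 to 1757 and from 643 to 1311 CPM (1.30 ± 0.15, adjusted p = 1.4e-07). Every high value exceeded every low value for both genes. In venous, arterial and Gpihbp1/Aqp1 capillary cells the change was 0.95 ± 0.15, 0.94 ± 0.13 and 0.88 ± 0.13 for Klf2, and 1.18 ± 0.18, 1.04 ± 0.15 and 1.06 ± 0.15 for Klf4. For comparison, 18 other handling genes had medians of 1.13 to 1.32, with 11 to 16 of them called higher per class. Without a term for the library none of these calls but that of Klf4 in Plvap capillary cells passed in edgeR (adjusted p from 0.13), although the changes were of the same size. Between the upper and lower 25% of cells Klf4 did not pass in the 3 classes with enough cells (adjusted p from 0.27 to 0.46), at larger changes of 1.72 to 2.06.

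Nos3, Thbd and Piezo1 did not pass in any of the 4 classes in edgeR, nor in DESeq2. Nos3 in Plvap capillary cells went from 144 to 98.8 CPM in library 1 and from 187 to 146 in library 2, which is toward lower values in both (log2 -0.35, 95% interval -0.62 to -0.08, unadjusted p = 0.014, adjusted p = 0.26). In the other classes its change was -0.15, -0.11 and 0.21. Thbd came closest in Gpihbp1/Aqp1 capillary cells, at 325 against 463 CPM in library 1 and 555 against 697 in library 2 (log2 0.47, interval 0.20 to 0.73, adjusted p = 0.054), and passed there when the upper and lower 25% of cells were compared (0.66, adjusted p = 0.043). Elsewhere Thbd changed by -0.01 to 0.07. Piezo1 was between -0.31 (Plvap capillary, unadjusted p = 0.030) and 0.12. The interval of Thbd in Gpihbp1/Aqp1 capillary cells overlapped that of Klf2 there, which was 0.62 to 1.14. A test of whether the change of a member differed among the classes gave unadjusted p from 0.063 to 0.58 (edgeR, adjusted p of 0.93 and above), where 1.09% of all genes were called.

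**Figure D3:**
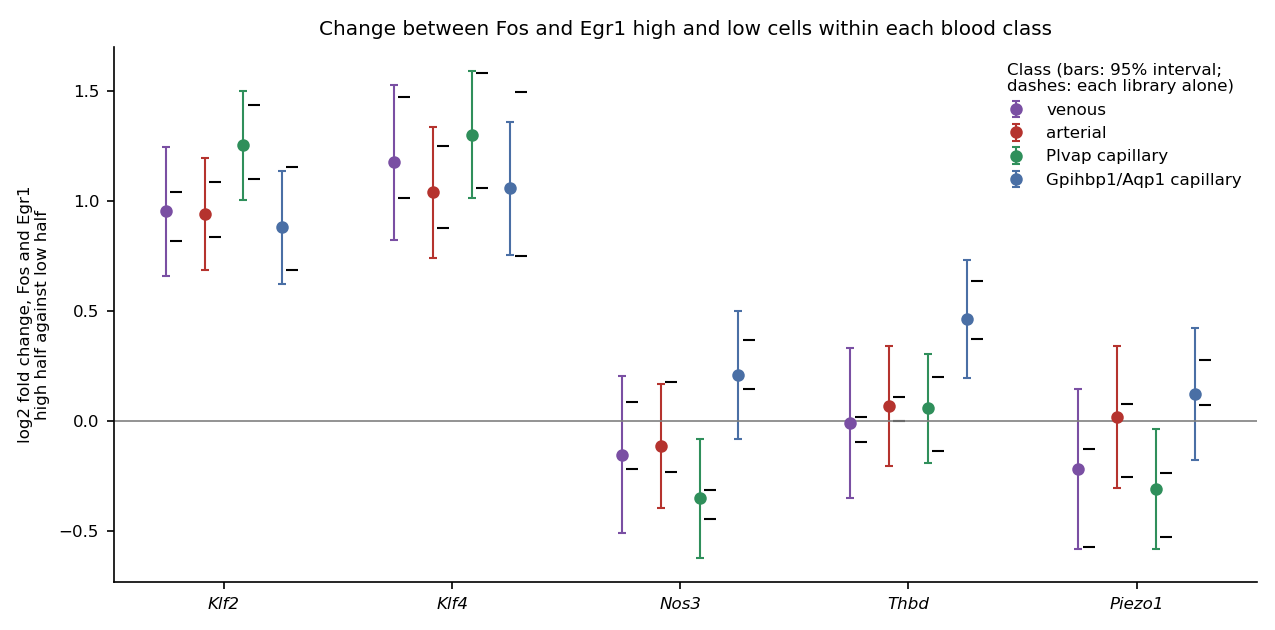
Log2 fold change (vertical axis) between cells above and at or below the class median of Fos plus Egr1, for each of the 5 genes and the 4 blood classes; points and bars are the fitted value and its 95% interval, and black dashes are each library alone. Klf2 and Klf4 lie between 0.88 and 1.30 in all 4 classes, and Nos3, Thbd and Piezo1 between -0.35 (Nos3, Plvap capillary) and 0.47 (Thbd, Gpihbp1/Aqp1 capillary), where the intervals of these and of Piezo1 in Plvap capillary cells leave out 0.

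Cell by cell, the 2 factors went with each other and with the handling genes. Their correlations with the targets were lower, but counting limits these values, as given below. Over the 10 combinations of library and class (65 to 2285 cells each, all at 1500 UMIs), the Pearson correlation of Klf2 with Klf4 had a median of 0.31 and a range of 0.14 to 0.47. Klf2 had a median of 0.29 with Fos and 0.27 with Egr1, and Klf4 had 0.33 and 0.31. With Fos and Egr1 taken out as covariates the median of Klf2 with Klf4 was 0.21, and among cells with 0 UMIs of both it was 0.15 over the 7 combinations with enough cells. The pairing of the factors was therefore weaker once Fos and Egr1 were held, and in the cells without Fos and Egr1 UMIs it ranged from -0.07 to 0.22. These correlations describe cells that share library, class and free RNA, and no test was made of them.

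For Klf2, the partners with the highest mean within-cell correlation among 2326 genes were Klf4, Fos, Jun, Egr1 and Junb, and for Klf4 they were Fos, Egr1, Klf2, Jun and Junb. Apart from Klf2 and Klf4 all of these are immediate early genes. Klf2 with Nos3 had a median correlation of -0.01 and Klf4 with Nos3 -0.01; with Piezo1 the medians were 0.00 and -0.04. The depth sets a limit on these small values. When the UMIs of a cell were divided at random into equal parts, a gene correlated with itself at a median of 0.40 for Klf2 and 0.45 for Klf4, but only 0.15 for Thbd, 0.05 for Nos3 and 0.01 for Piezo1, so a relation within a class to Nos3 or Piezo1 was not detectable at this depth. Corrected for this counting error, the median was 0.50 for Klf2 with Klf4 (range 0.24 to 0.82). It was 0.16 for Klf2 with Thbd (-0.08 to 0.88) and 0.08 for Klf4 with Thbd (-0.18 to 0.72).

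Sums over many cells are less limited by counting, and in Plvap capillary and arterial cells of both libraries neither target was higher in cells with a Klf2 UMI than in those without. In Plvap capillary cells of library 2, 655 cells with no Klf2 UMI, 951 with 1 to 2 and 679 with 3 or more had 192, 182 and 163 CPM of Nos3 and 540, 549 and 528 CPM of Thbd. Over the same groups Klf4 rose from 651 through 947 to 1340 CPM and Fos from 919 through 1455 to 2436 CPM. In arterial cells of library 2, Nos3 was 343 CPM without and 266 with a Klf2 UMI, and Thbd 425 and 401 CPM. Nos3 in Gpihbp1/Aqp1 capillary cells of library 1 went the other way, at 110 CPM without (15 UMIs, 95% Poisson interval 61.5 to 181) and 239 with Klf2 (44 UMIs, 173 to 320), where library 2 had 225 and 235 CPM. At 0, 1 to 2 and 3 or more Klf2 UMIs, Thbd in these cells was 381, 326 and 469 CPM in library 1 and 610, 576 and 699 in library 2. In venous cells Nos3 was 207, 261 and 133 CPM in library 1 and 226, 333 and 148 in library 2. Venous Thbd was 230, 203 and 356 CPM and 400, 381 and 407 CPM.

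With Klf4 in place of Klf2, Thbd was higher at higher counts in the capillaries of library 2. In cells with 0, 1 to 2 and 3 or more Klf4 UMIs, Thbd was at 484 (446 to 525), 560 and 594 CPM (539 to 653) in Plvap capillary and 546 (476 to 624), 602 and 722 CPM (650 to 800) in Gpihbp1/Aqp1 capillary cells. The intervals of the outer groups did not overlap in either class, but they cover counting error only and no test was made. In library 1 the values were 446, 536 and 472 CPM in Plvap and 321, 431 and 294 CPM in Gpihbp1/Aqp1 capillary cells, with no such order. Nos3 was at 193, 170 and 177 CPM in the Plvap capillary cells of library 2.

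**Figure D4:**
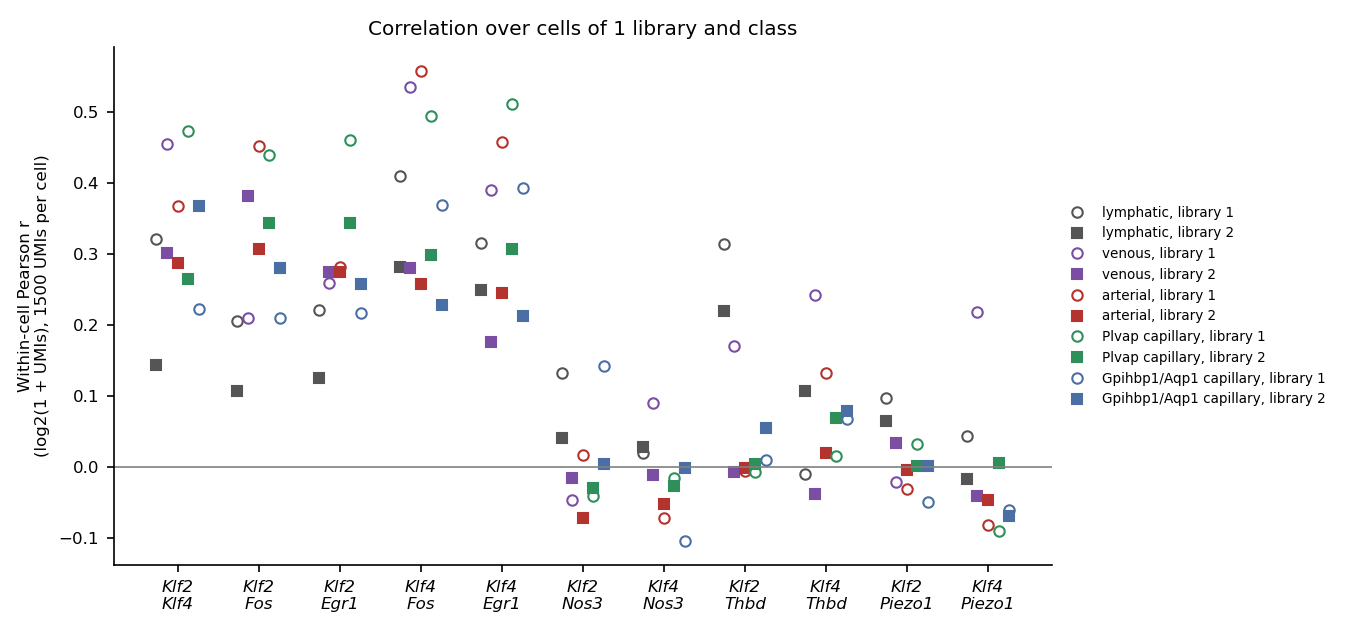
Pearson correlation over cells of log2(1 + UMIs) at 1500 UMIs per cell (vertical axis) for 11 gene pairs, 1 point per library and class, coloured by class, library 1 open and library 2 filled. Pairs among Klf2, Klf4, Fos and Egr1 all lie above 0, while pairs of a factor with Nos3, Thbd or Piezo1 have medians of -0.04 to 0.07, with single points as high as 0.31 (Klf2 with Thbd, lymphatic cells of library 1), 0.24 (Klf4 with Thbd) and 0.22 (Klf4 with Piezo1).

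In lymphatic cells Klf2 and Thbd went together, a pattern singled out after its values were seen. They had a correlation of 0.31 in library 1 (65 cells) and 0.22 in library 2 (716 cells), against -0.01 to 0.17 in the blood classes. With Fos and Egr1 as covariates the values were 0.34 and 0.23, and in the 439 cells of library 2 without Fos or Egr1 UMIs it was 0.30, where blood classes of 50 cells or more ranged from -0.25 to 0.20. In library 2, 534 lymphatic cells without a Klf2 UMI had 208 CPM of Thbd (167 UMIs, 95% Poisson interval 178 to 243), and 182 cells with one had 451 CPM (123 UMIs, 374 to 538). In library 1 the values were 27.2 CPM from 2 UMIs in 49 cells (3.30 to 98.3) and 333 CPM from 8 UMIs in 16 cells (144 to 657). The intervals of the 2 kinds of cells did not overlap in either library, but they cover counting error only. Thbd UMIs clustered in cells, with a variance over the mean of 2.28 and 1.42, so the intervals are too narrow. In library 1 the Thbd UMIs came from 6 of the 65 cells, with 4 in 1 of them.

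Handling genes and Klf4 were also higher in the lymphatic cells with Klf2, whereas the markers of vessel type differed little. In library 2, Nos3 was 37.5 CPM without and 44.0 with a Klf2 UMI, the 6 blood endothelial markers 245 and 267 CPM, and the 6 lymphatic markers 16127 and 14890 CPM. Klf4 was 348 and 495 CPM, Fos 442 and 736 CPM and Egr1 725 and 1139 CPM. In library 1, with 49 and 16 cells, Klf4 was 218 and 750.0 CPM, Fos 422 and 1792 CPM, Egr1 463 and 1458 CPM, Piezo1 68.0 and 208 CPM and Nos3 13.6 and 41.7 CPM from 1 UMI each. In the library 2 cells without Fos or Egr1 UMIs the Thbd difference was as large, at 211 (172 to 255) against 515 CPM (411 to 637), with the blood endothelial markers at 245 and 248 CPM. Thbd was higher where Klf2 was present, with the blood markers at nearly the same low level in both kinds of cells. These markers include Flt1, Cd34, Plvap and Esam, which lymphatic cells held below 5 UMIs by definition. Their low level was therefore set in advance and is no test for blood cells or blood RNA among them.

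**Figure D5:**
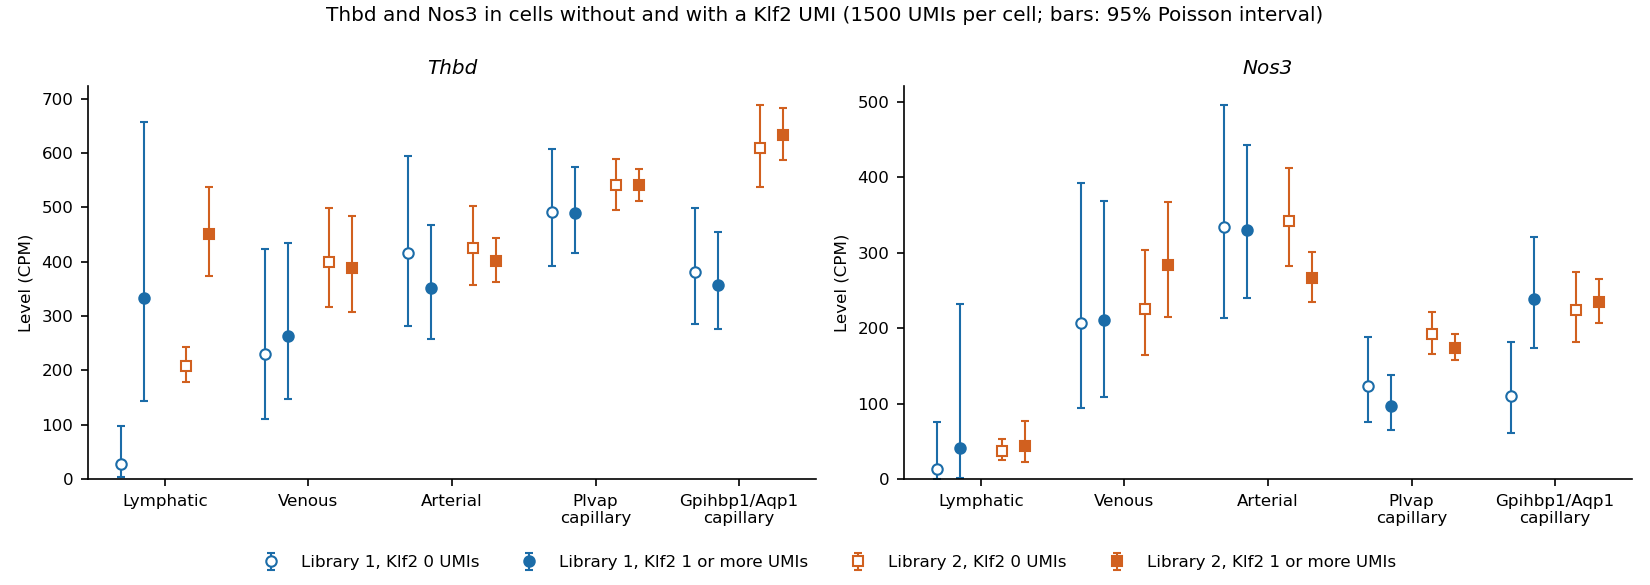
Level in CPM (vertical axis, from 0) of Thbd and Nos3 in cells with no Klf2 UMI (open) and with 1 or more (filled) of 1500 UMIs, per class and library, with 95% Poisson intervals. Thbd in lymphatic cells is higher with Klf2 in both libraries (451 against 208 CPM in library 2), and in Plvap capillary cells it is 540 CPM either way in library 2.

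The genes around the 5 members, from lists of the pathway, were unevenly divided between lymphatic and blood cells (medians are log2 fold changes of lymphatic over blood). Over all genes 21.9% were higher and 24.7% lower, with a median of -0.01, and several lists were near these shares. Of 11 other mechanosensors, 2 were higher and 5 lower in lymphatic cells (median -0.27). Piezo2, the other stretch-gated channel of the family, was higher, at 185 and 137 CPM against 12.4 and 8.83 CPM (log2 3.85 ± 0.21), as was the receptor gene Flt4 (4.13 ± 0.14), itself a lymphatic marker. Plxnd1 (-1.66) and Gna11 (-1.47) were lower. Of the 11 genes of the cascade from the surface to the MEF2 factors, 6 were lower and none higher (median -0.47). The list was not divided by whether a gene drives or restrains the cascade, so these counts give no direction for the cascade. Heg1 had 39.4 and 71.6 CPM in lymphatic cells against 370 and 391 in blood cells (log2 -2.68 ± 0.18), and Mef2c (-1.20) and Mef2d (-0.86) were lower too. Of 10 other KLF genes tested, 6 were lower and 2 higher, Klf15 (3.02, from 7 and 31 UMIs in lymphatic cells) and Klf9 (1.06 ± 0.14).

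The genes that work with the targets were lower in part. Of 11 regulators of nitric oxide synthesis, 5 were lower and 2 higher in lymphatic cells (median -0.39). Nostrin, which binds the synthase and moves it off the membrane, had 0 and 3.20 CPM in lymphatic against 89.95 and 88.9 CPM in blood cells. Gch1, the rate-limiting enzyme for the tetrahydrobiopterin cofactor, had 35.4 and 16.0 against 104 and 121 CPM (log2 -2.75 ± 0.25). Ddah2 (-3.41) and Ddah1 (-1.41), which clear an endogenous inhibitor of the synthase, were lower as well. Of 6 partners of thrombomodulin and other clotting genes, 3 were lower and 3 higher. Procr, the protein C receptor that works beside thrombomodulin, had 0 and 8.79 CPM in lymphatic against 95.2 and 99.7 CPM in blood cells, and 471 and 694 CPM in venous cells, the blood class with the least Thbd. Of 20 handling genes, Fos and Egr1 among them, 18 were lower in lymphatic cells and none higher (median -2.01).

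Genes that laminar flow is known to induce or repress did not divide arteries from veins by direction. Of 11 induced genes, 3 were higher and 5 lower in arterial than in venous cells (edgeR, median log2 fold change of arterial over venous -0.85), where 10.1% of all genes were higher and 11.5% lower, with a median of 0.02. Plat, tissue plasminogen activator, was at 622 and 674 against 21.4 and 58.2 CPM, and Gja4 was higher (4.96 ± 0.22). Ptgs1 (-4.34 ± 0.19) and Cyp1b1 (-5.55 ± 0.39, with 0 UMIs in arterial cells of library 1) were lower. Of 8 repressed genes tested, 2 were higher and 3 lower. Edn1, the vasoconstrictor endothelin, was at 373 and 413 in arterial against 49.0 and 51.8 CPM in venous cells, and the leukocyte adhesion genes Sele and Vcam1 (-3.60 ± 0.18) were lower. Of the mechanosensors 6 were higher in arterial cells and 1 lower, of the other KLF genes 5 and 1, of the upstream cascade 2 (Heg1 and Mef2c, both 0.37) and 0.

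Few of these neighbours were called between the Fos and Egr1 high and low cells of a class. Over all genes, 0.431 to 1.94% were called higher and 0.129 to 1.35% lower per class. With shares this low, the absence of calls in such short lists says little by itself. In the lists of mechanosensors, the upstream cascade and the partners of thrombomodulin none was called in any of the 4 blood classes (edgeR), with medians from -0.24 to 0.30. The exceptions were Hsp90aa1, a chaperone of the synthase and a heat shock gene, higher in arterial, Plvap and Gpihbp1/Aqp1 capillary cells (0.69, 0.70 and 0.93), Klf9 in arterial cells (0.64), Gja4 and Edn1 in Plvap capillary cells (0.57 and 0.60), and Icam1, higher in Gpihbp1/Aqp1 capillary (1.14) and lower in venous cells (-0.46), with Sele also lower there (-1.17).

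By level across the 10 sums of library and class, each library centred on its own mean, the genes most like each member were ranked among 4578 genes. Klf2 was closest to Junb (Pearson r 0.98), Ppp1r13b, Sertad1, Ddx5 and Fos, with Egr1 sixth (0.98) and Klf4 at rank 55 (0.93). Klf4 was closest to Pdcd6 (0.97), Nfic, Egr1, H3f3a and Aldh2. Nos3 was closest to Ptprb (0.99), Mecom, Adcy4, Adam15 and Arid5b, and stood at 0.90 with Klf2 and 0.80 with Klf4. Thbd was closest to Rtl8b (0.97), Impdh1, Sparcl1, Nes and Fmnl3. Among the genes closest to Piezo1 were Nktr (0.92), Casz1, Npr1 and Isg15, and Piezo1 stood at 0.11 with Klf2 and -0.14 with Klf4. These values rest on 5 classes in 2 libraries, which share depth and the low lymphatic level of several members, and they are a description.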

How the data were processed

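The authors deposited, per the file headers, raw counts of UMIs per gene and cell barcode for 2 libraries; per the submitters' processing notes, bcl2fastq 2.2, Cell Ranger 3.1.0 and mm10 were used. The annotation and the use of strand are not given in the sources used here. Barcodes needed 500 genes and no more than 15% mitochondrial UMIs, and cells meeting both gates of a pair were set aside. Scrublet in scanpy 1.11.5 called 5 and 6 doublets, too few in library 2 to have worked, so doublets were not removed. UMIs were summed per library and class and tested with edgeR 4.0.16 (quasi-likelihood, TMM, minimum count 10, Benjamini-Hochberg over all genes), with the library as a block because both classes of a library come from 1 sample. Genes defining the classes were not tested. The fit of lymphatic against blood cells had 1 residual degree of freedom, and those of class pairs and of high against low cells had 4 each. The median prior degrees of freedom, which weigh the spread of other genes, were infinite, 47.4 and 64.4. The spread in every fit thus came wholly or mainly from other genes. DESeq2 1.42.0 was an alternative. Scripts were tested on simulated data with 200 genes changed 2-fold. The tests recovered 16% of them in lymphatic against blood cells. They recovered 54.5% in arterial against venous cells and 54.5% in arterial high against low cells. A gene that did not pass is therefore not shown to be equal. Intervals (exact, 95%) cover counting error only. Stromal cells had no Pecam1 or Cdh5 UMI and at least 5 UMIs of Dcn, Col1a1, Pdgfrb, Rgs5 and Acta2. Named genes were the members, up to 4 called genes of each list and the 5 most alike per member (1 of them is not reported here); members and lists were chosen with earlier results of these data known. Positions are from GENCODE vM21 on GRCm38.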

Additional observations from a re-analysis of the deposited data

How the results depend on the processing

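Over all alternatives that gave a test, the lower levels of Klf2, Klf4, Nos3 and Thbd in lymphatic against blood cells passed in 11 of 11, and no direction of these or of the Klf2 and Klf4 changes with Fos and Egr1 turned. In cells with 3 or more Fos and Egr1 UMIs, an alternative chosen after seeing the data and without a test, the lymphatic differences were -1.30 for Klf2, -0.59 for Klf4, -2.70 for Nos3 and -2.07 for Thbd, but for Klf2 (-0.58 and -2.01) and Thbd (-2.89 and -1.25) library 1, with 10 lymphatic cells, and library 2 were far apart. With cells thinned to 1500 UMIs Piezo1 passed at -0.65. Left to 1 library, the differences ranged from -2.48 to -1.72 for Klf2, -1.63 to -1.48 for Klf4, -2.70 to -2.61 for Nos3, -1.60 to -1.09 for Thbd and -0.42 to -0.0081 for Piezo1. The ranges of change between Fos and Egr1 high and low cells, divided at the median, follow for venous, arterial, Plvap capillary and Gpihbp1/Aqp1 capillary cells. They were 0.82 to 1.04, 0.84 to 1.09, 1.10 to 1.44 and 0.69 to 1.16 for Klf2. For Klf4 they were 1.01 to 1.47, 0.88 to 1.25, 1.06 to 1.58 and 0.75 to 1.496. With no replicate block (no library term) these changes kept their size but did not pass, at 0.94, 0.94, 1.23 and 0.84 for Klf2 and at 1.23, 1.06 and 1.002 for Klf4 in venous, arterial and Gpihbp1/Aqp1 capillary cells. Between the upper and lower 25% of cells, Klf4 in arterial, Plvap and Gpihbp1/Aqp1 capillary cells changed by 1.77, 2.06 and 1.72 without passing. Klf2 passed there, at 1.34, 1.80 and 1.40, and the cause was not tested. Counts of genes called in lymphatic against blood cells were 5114 in edgeR and 2366 in DESeq2. The venous class had 15 cells without Fos or Egr1 UMIs and 17 in an outer 25% group, so those alternatives were not run for it. The lymphatic class was left out of the division by Fos and Egr1 because library 1 had 18 high cells. Depth limits Nos3 and Piezo1 most, and 13 and 260 lymphatic cells were too shallow to be thinned.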
